A study of Mus musculus with 3 samples.

Results

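The 8 genes described here carry corticosteroid signalling inside a cell: the receptors *Nr3c1* and *Nr3c2*, the enzymes *Hsd11b1* and *Hsd11b2*, and the target genes *Fkbp5*, *Tsc22d3*, *Sgk1* and *Per1*. They are 8 of 32285 genes counted in cells of the mouse cochlea at postnatal days 14 (P14) and 28 (P28), and were matched by symbol. The genes were chosen by their levels across cell types and ages in these same libraries, so their levels are given as descriptions and without a test.

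Corticosterone, the main glucocorticoid of mice, crosses the cell membrane and binds the glucocorticoid receptor, the product of *Nr3c1*, which then enters the nucleus and acts as a transcription factor. The mineralocorticoid receptor, the product of *Nr3c2*, binds both aldosterone and corticosterone, and in many tissues the enzyme that decides what reaches a receptor sits in the same cell: *Hsd11b1* regenerates active corticosterone from its inert 11-keto form, and *Hsd11b2* does the reverse. In the inner ear corticosteroids are known for their use in sudden hearing loss and for their action on sodium transport by the epithelia that line the endolymph.

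The mice were of the strain labelled C57/B6 and of both sexes, carried no allele and received no agent that the labels name, and the 2 groups differed in age. P14 is represented by 1 library and P28 by 2, each a pool of 14 cochleae from 7 mice. Tissue from the upper base to the apex was freed with collagenase IV after CO2 euthanasia in the late morning, and the cells were loaded on the 10x Chromium system without sorting. With 1 pool at P14, age and library cannot be told apart, and what follows between the ages has no replicate check.

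Unique molecular identifiers (UMIs, each standing for 1 captured RNA molecule) were counted in 1662 cells at P14 and in 5651 and 7065 cells at P28, with 7432047, 24596587 and 23300859 UMIs. The median cell held 2477, 2421 and 2037 UMIs, of which 6.24%, 10.0% and 10.8% were mitochondrial, and 4 to 10 cell barcodes were shared by a pair of libraries. Levels (CPM) are a gene's UMIs scaled to a total of 1000000 UMIs for each cell class and library, and intervals are exact Poisson 95% intervals, which cover counting error only. Over all kept cells there were 4504 UMIs of *Nr3c1*, 1212 of *Nr3c2*, 576 of *Hsd11b1*, 21 of *Hsd11b2*, 744 of *Fkbp5*, 6146 of *Tsc22d3*, 5425 of *Sgk1* and 1744 of *Per1*.

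Cells were clustered without these genes, and 45 of 48 clusters were given a name ending in "-like" from markers. The sensory epithelium gave outer hair cell (OHC)-like, inner hair cell (IHC)-like, Deiters and pillar cell (DC/PC)-like, inner phalangeal and border cell (IPhC/IB)-like and inner sulcus, Hensen's and outer sulcus cell (ISC/HeC/OSC)-like classes. Reissner's membrane (RM)-like, spindle and root cell (SpC/RC)-like, tympanic border cell (TBC)-like, spiral ganglion neuron (SGN)-like, Schwann and satellite glial cell (SC/SGC)-like and blood and connective tissue classes were also found. OHC-like cells carried the outer hair cell motor gene *Slc26a5* at 2026, 526 and 653 CPM at P14 and in the P28 replicates. SGN-like, IPhC/IB-like, SpC/RC-like and granulocyte-like classes were found at P28 only. The P14 macrophage-like cluster had the granulocyte markers *S100a8* and *S100a9* among its 10 leading genes, which the P28 one did not. How far granulocytes within it affect the comparisons of macrophage-like cells was not tested. Both unnamed P28 clusters matched fibrocyte markers best. The one led by *Fxyd2* and *Gjb2* held 3 of 6 and the one led by *Coch* and *Spp1* held 5 of 6. Some names rest on part of their markers. Pericyte-like cells at P28 met 3 of 7, with *Abcc9* but little *Notch3*, *Rgs5* or *Vtn* and no *Higd1b*. *Cemip*, a fibrocyte marker, was among their leading genes, and the P14 pericyte-like cluster also qualified as fibrocyte. Fibroblast-like cells held *Dcn* but little *Col1a1*. SpC/RC-like cells met 3 of 5, with *Slc26a4* but no *Dpp10* and little *Lrp2*, and *Ceacam16*, a DC/PC marker, was among their leading genes. The SC/SGC-like cells at P14 had *Mobp* and *Mog* among their 10 leading genes, which those at P28 did not, and the red blood cell-like cells at P14 were proliferating, so neither class was compared between ages, and IHC-like cells at P14 came from 1 shallow cluster. Red blood cell-like values are given beside some results as those of a cell type far from the sensory epithelium. They are no measure of free RNA, since haemoglobin lowers every other level in them: without haemoglobin, mitochondrial and ribosomal protein genes their *Tsc22d3* level at P28 rises from 36.8 and 37.5 CPM to 181 and 155 CPM.

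The promoter of *Sgk1* is shown because one of its 6 annotated starts carries the whole palindrome bound by glucocorticoid and mineralocorticoid receptors, and that of *Fkbp5* because it lacks it. Sequences are from RefSeq (GRCm38.p6), 250 bases up to the start of transcription, 5′ to 3′ on the gene's strand. The *Sgk1* window lies at chr10:21993640-21993889 on the plus strand and the *Fkbp5* window at chr17:28486150-28486399 on the minus strand, and neither overlaps an annotated exon. Capitals mark the palindrome (AGAACA, any 3 bases, TGTTCT) and the E-box CACGTG, the site of clock transcription factors.
Sgk1: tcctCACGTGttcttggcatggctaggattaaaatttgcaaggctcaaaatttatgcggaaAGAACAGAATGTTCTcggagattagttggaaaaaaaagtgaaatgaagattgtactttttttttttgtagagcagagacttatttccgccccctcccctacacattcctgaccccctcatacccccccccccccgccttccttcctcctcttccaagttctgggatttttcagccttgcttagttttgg
Fkbp5: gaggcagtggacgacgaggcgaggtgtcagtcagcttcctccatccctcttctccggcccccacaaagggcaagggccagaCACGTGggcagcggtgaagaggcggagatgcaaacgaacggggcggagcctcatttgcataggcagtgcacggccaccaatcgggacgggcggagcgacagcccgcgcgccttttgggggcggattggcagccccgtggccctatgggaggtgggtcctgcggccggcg
In the *Sgk1* window the palindrome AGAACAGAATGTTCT lies at −189 to −175 from the start and the E-box at −246 to −241, and in the *Fkbp5* window the E-box lies at −169 to −164. Both motifs were searched on both strands in windows that also took the 50 bases after the start. The whole palindrome was in 3 of 32851 promoters (0.00913%), its core ACANNNTGT, which lies inside it, in 2249 (6.85%) and CACGTG in 2349 (7.15%). *Per1*, itself a clock gene, had CACGTG in 1 of 2 promoters, at −166 to −161, and *Sgk1* had a second core match, ACAGTTTGT, at −127 to −119 of another start. *Tsc22d3*, with 3 promoters, *Nr3c2* and *Hsd11b1*, with 1 each, held none of these letters, and *Nr3c1* and *Hsd11b2* had no entry. A match in letters is no measure of binding.

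**Figure D1:**
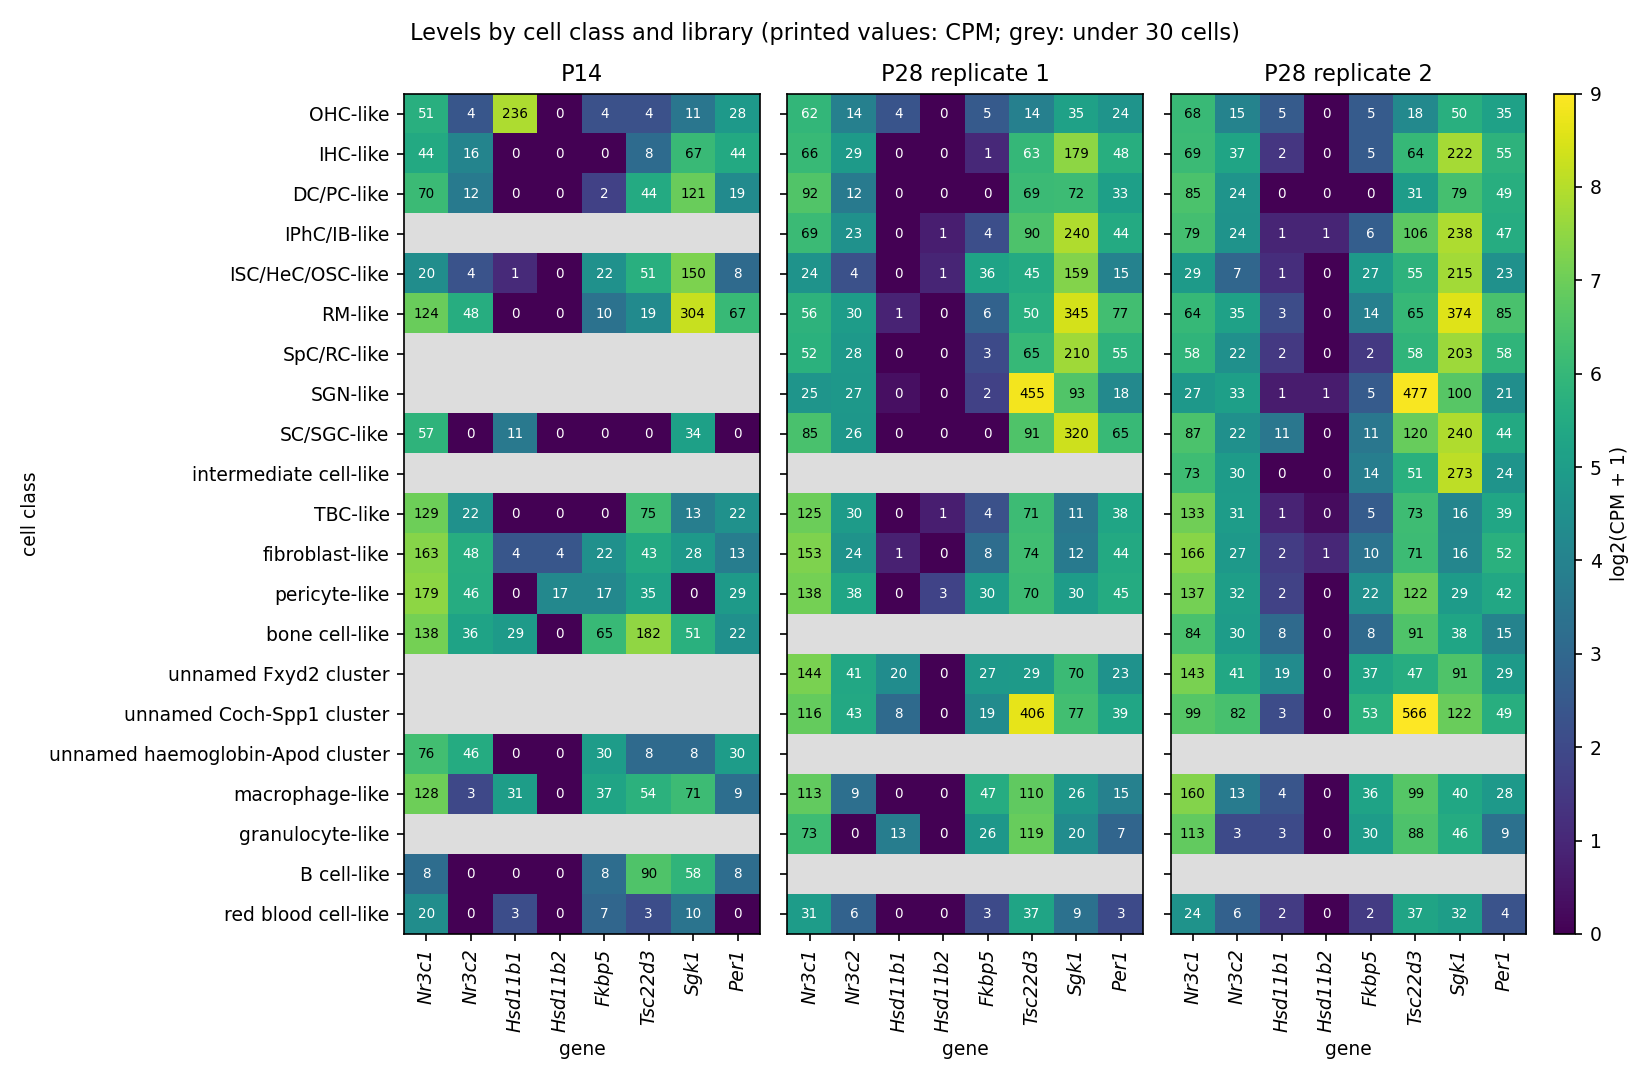
Level of each of the 8 genes (columns) in each cell class (rows) in the P14 library and both P28 libraries. Colour gives log2(CPM + 1), the printed value is CPM and grey marks a class with under 30 cells. *Hsd11b1* is at 236 CPM in OHC-like cells at P14 and near 4.0 and 5.05 CPM at P28, and *Tsc22d3* is at 455 and 477 CPM in SGN-like cells.

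*Nr3c1*, the glucocorticoid receptor, lies at chr18:39410545-39519421 (GRCm38) and had UMIs in every class. At P28 the highest levels were in fibroblast-like, pericyte-like, macrophage-like and TBC-like cells and in an unnamed cluster led by *Fxyd2* and *Gjb2*, which had 144 and 143 CPM. Fibroblast-like cells had 163 (P14), 153 and 166 CPM (P28), pericyte-like cells 179 CPM at P14, then 138 and 137 at P28, and TBC-like cells, which line the scala tympani side of the basilar membrane, 129 (P14), 125 and 133 CPM (P28). Macrophage-like cells had 128 CPM at P14, then 113 and 160.0 at P28. Among epithelial classes ISC/HeC/OSC-like cells were lowest, with 20.1 (P14), 23.5 and 29.1 CPM (P28), and SGN-like cells had 24.8 and 27.2 CPM. The fibroblast-like level was above the ISC/HeC/OSC-like level in all 3 libraries with intervals far apart, as at P14, where they ran from 128 to 204 and from 15.2 to 26.1 CPM. Hair cells lay between: OHC-like cells had 50.6 CPM at P14, then 61.6 and 67.8 at P28 and IHC-like cells 43.6 (P14), 66.04 and 68.95 CPM (P28).

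Neighbouring classes in the order were not separated, though the level dropped near the low end. There SpC/RC-like cells had a P28 mean of 55.2 CPM, and the classes below had 27.2 (red blood cell-like), 26.3 (ISC/HeC/OSC-like) and 26.0 CPM (SGN-like). The red blood cell-like level is lowered by haemoglobin. Over the 17 classes with 30 or more cells in both P28 libraries, from 159 ± 9.53 CPM (SD, n = 2) in fibroblast-like cells downward, no class was above the next one with intervals apart in both libraries. Cells were also thinned to 1000 UMIs each, so that depth no longer differed. An *Nr3c1* UMI was then found in 12.4% of fibroblast-like cells at P14 and in 12.3% and 13.7% at P28 (unthinned 31.2%, 29.2% and 25.99%). In ISC/HeC/OSC-like cells the thinned share was 2.11%, 2.84% and 2.46%, and in SGN-like cells 2.61% and 2.72%. The OHC-like share was 6.54%, 7.40% and 5.99%, and the red blood cell-like share 0%, 2.53% and 2.76%. How much of the low shares is free RNA was not tested.

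*Nr3c2*, the mineralocorticoid receptor (chr8:76899442-77245012), had fewer UMIs. Fibroblast-like cells had 47.7 CPM at P14, then 23.9 and 27.3 at P28, which was the highest level at P14 and number 8 of 17 classes at P28. At P28 the highest levels were in a cluster led by *Coch* and *Spp1*, left unnamed because genes of another type led it, at 42.6 and 82.3 CPM, and in the cluster led by *Fxyd2* and *Gjb2*, unnamed for the same reason, at 41.2 and 40.99 CPM. Pericyte-like cells had 46.1 (P14), 37.7 and 31.8 CPM (P28), IHC-like cells 15.8 CPM at P14, then 28.9 and 37.00 at P28 and RM-like cells 47.5 (P14), 30.2 and 34.5 CPM (P28), the P14 values of these 3 classes resting on 4 to 8 UMIs. SGN-like cells had 26.6 and 33.03 CPM, a value that fell to 12.3 CPM as the mean of both libraries where cells with over 3000 genes or 15000 UMIs were left out. At the low end were ISC/HeC/OSC-like cells, with 3.95 CPM at P14, then 3.69 and 6.82 at P28, and macrophage-like cells, with 2.86 (P14), 8.81 and 12.5 CPM (P28). Macrophage-like cells were thus near the top for *Nr3c1* and near the bottom for *Nr3c2*, while ISC/HeC/OSC-like cells were low in both.

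*Hsd11b1*, which regenerates corticosterone (chr1:193221634-193264075), was confined at P14 almost to one class. At P14 OHC-like cells had 236 CPM (215 to 259), from 443 UMIs, which was 95.3% of the 465 *Hsd11b1* UMIs in kept cells of that library. At P28 OHC-like cells had 3.999 CPM (1.92 to 7.35) and 5.05 CPM (2.03 to 10.4), from 10 and 7 UMIs, 23.8% of 42 and 10.1% of 69 *Hsd11b1* UMIs in those libraries. The P14 level was 59.0 times that of P28 replicate 1 (interval 31.8 to 124) and 46.8 times that of replicate 2 (22.5 to 117). Ordered by the smaller of both folds, *Hsd11b1* was number 4 of the 3567 genes with a mean of at least 50 CPM over the 3 libraries in OHC-like cells. It reached that mean through its P14 level alone, and genes low in every library could not enter the order. Because these genes were chosen with this difference known, the rank describes it and does not test it.

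The P14 signal was spread over the OHC-like cells rather than held by a few. Of 277 cells 109 had no *Hsd11b1* UMI, 62 had 1 and 106 had 2 or more, with a highest count of 10. At P28, 358 of 367 and 277 of 284 cells had none, and no cell had more than 2. After thinning to 1000 UMIs the share of OHC-like cells with a UMI was 22.3% at P14 (unthinned 60.6%, 17 shallower cells left out), 0 of 365 cells in P28 replicate 1 and 1 of 284 in replicate 2. Red blood cell-like cells had a UMI in 1 of 50 cells at P14. Their median was 4982 UMIs a cell, many of them haemoglobin, against 6510 in OHC-like cells. How much of the OHC-like signal is free RNA was not tested. All 3 OHC-like clusters at P14 shared the high level, at 277 CPM in 194 cells, 154 CPM in 51 cells and 140.2 CPM in 32 shallow cells (7 UMIs). Both OHC-like clusters at P28 were low, at 4.35 and 5.49 CPM and at 3.01 and 4.21 CPM.

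**Figure D2:**
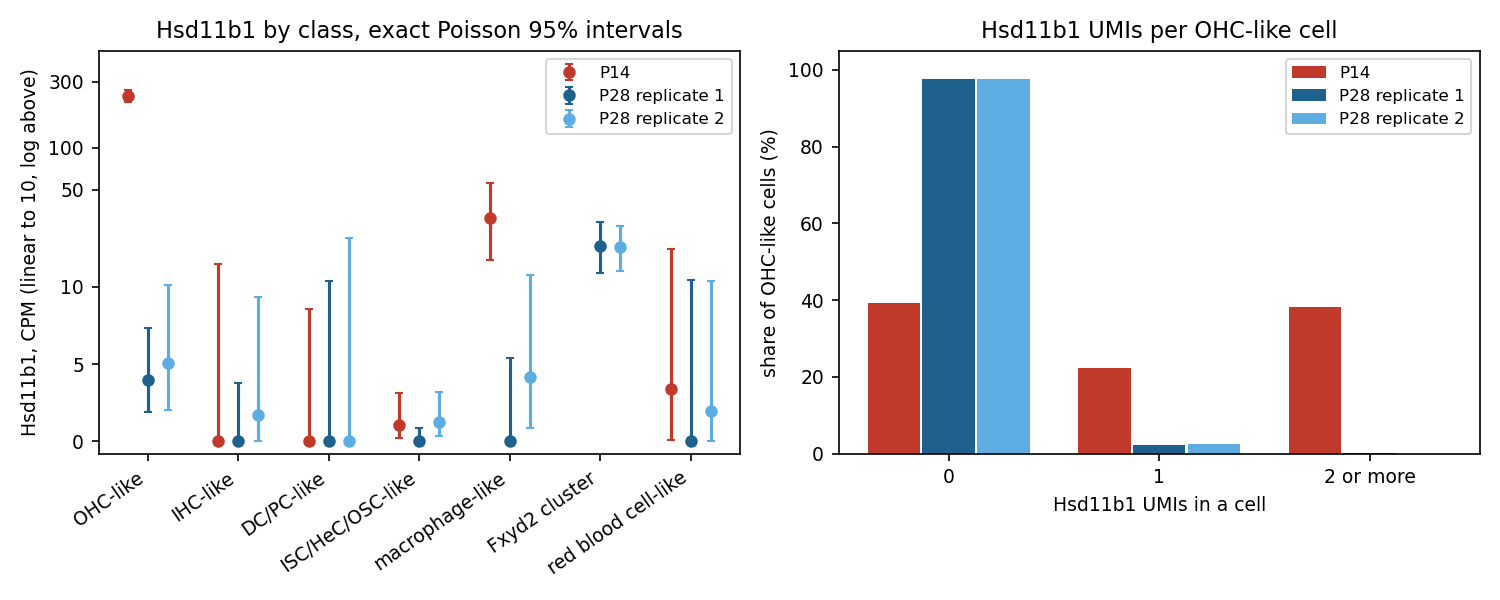
Left, *Hsd11b1* level (CPM, linear to 10 and logarithmic above) by class and library, with exact Poisson 95% intervals. Right, share of OHC-like cells (%) with 0, 1 or 2 or more *Hsd11b1* UMIs, by library. The P14 OHC-like level, 236 CPM, stands above all others, and 106 of 277 P14 cells but 1 of 367 and 0 of 284 P28 cells hold 2 or more UMIs.

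The neighbours of the outer hair cells did not share the P14 level. IHC-like cells had 0 UMIs at P14, which allows up to 11.9 CPM (3 counts of the class total), and DC/PC-like cells had 0, which allows up to 6.97 CPM. ISC/HeC/OSC-like cells had 1.08 CPM at P14, then 0 and 1.24 at P28. Macrophage-like cells at P14 had 31.4 CPM from 11 UMIs, against 0 and 4.17 CPM at P28, and those 11 UMIs came from 3 of 76 cells. At P28 the cluster led by *Fxyd2* and *Gjb2* had the highest level, 19.8 and 19.3 CPM from 24 and 31 UMIs, in both libraries alike. Barcodes that failed the filter on genes and mitochondrial UMIs had 23.0, 3.49 and 5.13 CPM by library, again highest at P14.

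The gene lies wholly within the locus of *Lamb3* on the opposite strand (42442 shared bases), and *Lamb3* had 1, 1 and 0 UMIs in OHC-like cells. The antisense gene *4930570N18Rik* had 0 UMIs in all 3 libraries. On the same strand *Gm38118* overlaps *Hsd11b1* by 2222 bases, and its counts were not examined. The neighbouring genes *G0s2* (12.8, 16.4 and 20.9 CPM) and *Traf3ip3* (6.40, 5.20 and 3.61 CPM) showed no comparable drop. Outer hair cell genes that were higher at P14 included *Ocm*, a calcium buffer, at 31352, 16959 and 17484 CPM, and *Slc26a5*, given above. OHC-like cells at P28 also held more mitochondrial UMIs, a median of 13.1% and 12.7% against 8.61% at P14, and with a limit of 10% the P28 mean of *Hsd11b1* was 1.70 CPM in place of 4.52.

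*Hsd11b2*, which inactivates corticosterone (chr8:105518755-105523988), was close to undetected. It had 21 UMIs in all kept cells, and was at 0 in 12 of 14 classes at P14 and in 13 of 17 and 15 of 19 at P28. OHC-like cells had 0 UMIs in every library, which allows up to 1.60, 1.20 and 2.16 CPM. The highest value was 17.3 CPM in P14 pericyte-like cells, from 3 UMIs (3.56 to 50.5), so no class can be ranked above another.

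*Fkbp5* encodes a co-chaperone that lowers the hormone affinity of the glucocorticoid receptor and is itself induced by it (chr17:28399094-28517527). Macrophage-like cells were among the highest classes in every library, at 37.1 (P14), 46.96 and 36.2 CPM (P28). The unnamed P28 clusters led by *Coch* and *Spp1* and by *Fxyd2* and *Gjb2* had 19.3 and 52.7 CPM and 27.2 and 37.3 CPM, and ISC/HeC/OSC-like cells had 22.3 CPM at P14, then 35.99 and 27.3 at P28. The highest P14 value, 65.5 CPM in bone cell-like cells, rested on 9 UMIs. DC/PC-like cells, by contrast, had 1, 0 and 0 UMIs. Within the ISC/HeC/OSC-like class the transcripts were concentrated in one cluster at each age. A P14 cluster led by *Epyc* and *Aqp4* had 81.7 CPM and held 59 of the 62 UMIs of the class, against 1.59 CPM in the largest P14 cluster. At P28 a cluster led by *Pcdh17*, *Aqp4* and *Agr3*, genes that also led the P14 one, had 107 and 79.4 CPM, against 3.96 and 5.20 CPM in the largest cluster, with the intervals apart in both libraries. Another cluster led by *Mia* and *Aqp4* had 12.9 and 22.1 CPM. The high P28 cells were deep, with a median of 7748 UMIs, and many are lost when cells are limited to 3000 genes and 15000 UMIs, and the P28 mean of the class then fell from 31.6 to 17.8 CPM. TBC-like cells, high in *Nr3c1*, had 0 (P14), 3.73 and 5.17 CPM (P28).

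*Tsc22d3* encodes GILZ, a leucine zipper protein through which glucocorticoids dampen inflammatory transcription (chrX:140539528-140600659). SGN-like cells had 455 and 477 CPM, and the unnamed cluster led by *Coch* and *Spp1* had 406 and 566 CPM. These levels stood apart: SGN-like cells were above the next class in both P28 libraries with intervals apart. The next class, SC/SGC-like cells, had 91.4 and 119.9 CPM, and macrophage-like cells had 54.2 CPM at P14, then 110.1 and 98.8 at P28. Within the SGN-like class the largest cluster had 484 and 504 CPM and another 281 and 254 CPM, while the smallest, of 42 cells and led by noncoding RNAs such as *Meg3*, had 2 UMIs in each library. With cells over 3000 genes or 15000 UMIs left out, the SGN-like mean fell from 466 to 306 CPM. The lowest class at P28 was OHC-like cells, at 3.73 (P14), 13.99 and 18.03 CPM (P28).

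*Sgk1* encodes a kinase that raises the activity of the epithelial sodium channel and is a target of both receptors (chr10:21882184-21999903). At P28 it was highest in glial, IHC-like and most epithelial classes. The epithelial exception, DC/PC-like cells, had 121 CPM at P14, then 71.6 and 79.4 at P28. At P14 SC/SGC-like cells had 34.0 CPM (7.00 to 99.3). RM-like cells, the cells of Reissner's membrane between endolymph and perilymph, had 304 CPM at P14, then 345 and 374 at P28. SC/SGC-like cells at P28 had 320.0 and 239.7 CPM, IPhC/IB-like cells 239.8 and 238 CPM, SpC/RC-like cells 209.6 and 203 CPM and ISC/HeC/OSC-like cells 149.9 (P14), 159 and 215 CPM (P28). Within the last class a P28 cluster led by *Rubie*, *Fst* and *Slc26a4* had 271 and 478 CPM. IHC-like cells had 67.3 CPM at P14, then 179 and 222 at P28 and OHC-like cells 10.7 (P14), 34.8 and 49.8 CPM (P28), so that IHC-like cells were above OHC-like cells in all 3 libraries with intervals apart. TBC-like cells had 13.3 CPM at P14, then 10.9 and 16.1 at P28 and fibroblast-like cells 28.2 (P14), 11.8 and 16.3 CPM (P28).

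In the order of the 17 classes at P28, the 6 highest for *Sgk1* ended with ISC/HeC/OSC-like cells, which were above the next class in both libraries with intervals apart. No other neighbours in the order were separated in this way. After thinning, an *Sgk1* UMI was found in 22.2%, 23.96% and 27.9% of RM-like cells (unthinned 32.5%, 44.4% and 47.5%). TBC-like cells had 0%, 1.01% and 2.31% and red blood cell-like cells 2.04%, 0% and 2.21%.

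*Per1*, a circadian repressor that glucocorticoids also induce (chr11:69095217-69109960), was highest in RM-like cells, at 66.5 CPM at P14, then 76.7 and 85.2 at P28. SpC/RC-like cells at P28 had 55.5 and 57.9 CPM, IHC-like cells 43.6 (P14), 48.5 and 55.5 CPM (P28) and fibroblast-like cells 13.00 CPM at P14, then 43.7 and 51.96 at P28. The low end at P28 was held by blood cells, with 6.60 and 9.14 CPM in granulocyte-like and 3.06 and 3.95 CPM in red blood cell-like cells, and by ISC/HeC/OSC-like cells, with 7.55 (P14), 14.8 and 22.6 CPM (P28). Each library was made from 1 pool killed in the late morning, so the phase of the clock cannot be told from these levels.

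*Nr3c1* and *Sgk1* were not ordered alike over the cell classes. At P28 fibroblast-like, TBC-like and pericyte-like cells combined *Nr3c1* above 100 CPM with *Sgk1* at 10.9 to 30.2 CPM, while RM-like, IPhC/IB-like, SpC/RC-like and ISC/HeC/OSC-like cells had *Nr3c1* below 100 CPM and *Sgk1* at 159 to 374 CPM. The remaining epithelial class, DC/PC-like cells, lay between for *Sgk1*, at 71.6 and 79.4 CPM, with *Nr3c1* at 92.4 and 85.5 CPM. Over 33 points, 11 classes in each of 3 libraries that share their cells and depth, Pearson's r of log2(CPM + 10) was −0.28 between *Nr3c1* and *Sgk1*, against 0.46 with *Per1*, 0.45 with *Tsc22d3* and 0.17 with *Fkbp5*. It was 0.66 between *Nr3c1* and *Nr3c2* and 0.78 between *Nr3c2* and *Per1*. The 11 classes include SC/SGC-like and red blood cell-like cells, both left out of the comparison between ages. Their part in these r and in those below was not tested. Among 3502 genes of at least 50 CPM, the profiles most like *Nr3c1* were those of *Spred1* (r = 0.83), *Rnf145* (0.83) and *Abca1* (0.81). Those most like *Sgk1* were *Sox10* (0.90), *Paqr6* (0.86) and *Prom2* (0.82), and those most like *Nr3c2* were *Il6st* (0.87), *Bmpr1a* (0.84) and *Phc3* (0.83). *Tsc22d3* was nearest to *Cpne3* (0.79), *Zfp36l1* (0.78) and *Slc39a1* (0.77), *Per1* to *Crebrf* (0.86), *Leng8* (0.85) and *Arhgap5* (0.85), and *Fkbp5* to *Bst2* (0.72), *Psme2* (0.71) and *Ctsz* (0.71). For *Hsd11b1* the nearest were *Efhd2* (0.72), *Ighm* (0.67) and *Slc26a5* (0.66). *Hsd11b1* was at 236 CPM at 1 point, OHC-like cells at P14, and at 31.4 CPM in P14 macrophage-like cells. All other points were lower, so its r values rest largely on 1 class in 1 library.

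**Figure D3:**
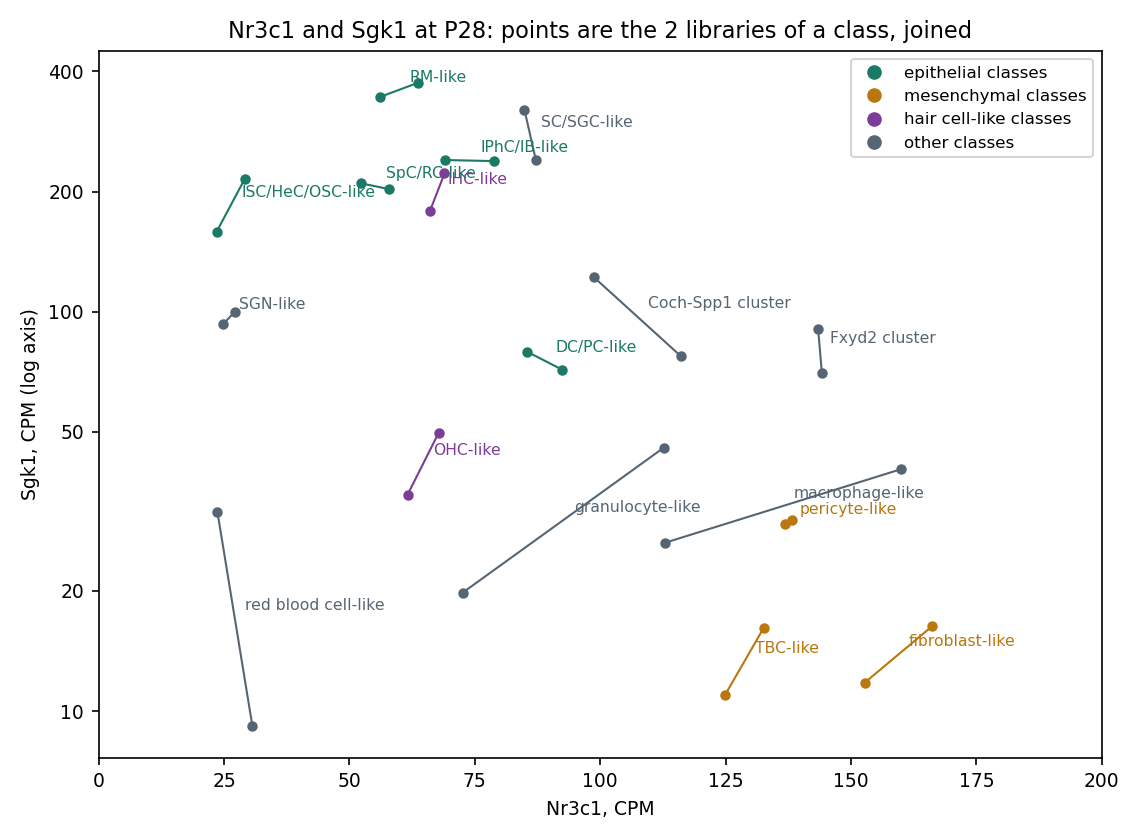
Level of *Nr3c1* (CPM, x axis) against *Sgk1* (CPM, logarithmic y axis) at P28. Each class is drawn as its 2 libraries joined by a line, coloured by kind of cell. Fibroblast-like and TBC-like cells lie at the lower right, with *Sgk1* at 10.9 to 16.3 CPM, and RM-like cells at the top, with *Sgk1* at 345 and 374 CPM.

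Between P14 and P28, a gene was counted in a class where its P14 level differed at least 2-fold from both P28 libraries and the intervals were apart. In the 9 classes compared, 8 of 72 pairs of gene and class met this, 2 higher and 6 lower at P14. Over all genes of at least 50 CPM in these classes, 10.2% of pairs did, 5.30% higher and 4.86% lower at P14, so the count of pairs is near the background and says nothing about these genes as a set. Of the 8 pairs, 2 reach the mean of 50 CPM that the background requires, *Hsd11b1* in OHC-like cells, through its P14 level alone, and *Sgk1* in IHC-like cells. With SC/SGC-like and red blood cell-like cells included, 11 pairs met the rule, the added ones all lower at P14.

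In OHC-like cells, where 4.21% of genes were higher and 4.23% lower at P14, *Hsd11b1* was higher and *Nr3c2*, *Tsc22d3* and *Sgk1* were lower. *Nr3c2* had 4.26 CPM at P14, then 13.99 and 15.1 at P28, from 8, 35 and 21 UMIs, beside 0 (P14), 6.13 and 5.92 CPM (P28) in red blood cell-like cells. *Sgk1* had 10.7 CPM at P14, then 34.8 and 49.8 at P28, from 20, 87 and 69 UMIs, beside 10.1 (P14), 9.19 and 31.6 CPM (P28) in red blood cell-like cells. *Tsc22d3* rested on 7, 35 and 25 UMIs, with the CPM given above, and was lower at P14 in red blood cell-like cells too, at 3.38 CPM from 1 UMI. The part of free RNA in these low levels was not tested. The summed level of 10 genes known to rise on tissue dissociation, such as *Fos*, was also lower at P14 in OHC-like cells, at 81.5, 154 and 149 CPM at P14 and in the P28 replicates, and its part in these differences was not tested.

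In IHC-like cells 9.0% of genes were lower at P14, among them *Sgk1*, at 67.3 CPM at P14, then 179 and 222 at P28, which is 2.65 and 3.30 times lower than in the P28 replicates. *Tsc22d3* had 7.92 (P14), 62.9 and 63.9 CPM (P28), the P14 value resting on 2 UMIs. P14 IHC-like cells were shallow, with a median of 1026 UMIs against 9310 and 8008, and their dissociation genes summed to 151, 326 and 267 CPM. In fibroblast-like cells, where 3.51% of genes were lower at P14, *Per1* had 13.00 CPM at P14, then 43.7 and 51.96 at P28, the P14 value resting on 6 UMIs, and the dissociation genes summed to 359.7, 719.6 and 424 CPM. In macrophage-like cells, where 4.80% of genes were higher at P14, *Hsd11b1* was higher on the 3 cells named above, and the dissociation genes summed to 674, 2002 and 1058 CPM. With cells thinned to 1000 UMIs, *Hsd11b1* in OHC-like cells was the single pair that still met the rule. With the 8% of cells of highest doublet score left out, *Nr3c2* and *Tsc22d3* in OHC-like cells and *Hsd11b1* in macrophage-like cells no longer met it, while *Nr3c1* in RM-like cells (higher at P14) and *Tsc22d3* in macrophage-like cells (lower) did.

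**Figure D4:**
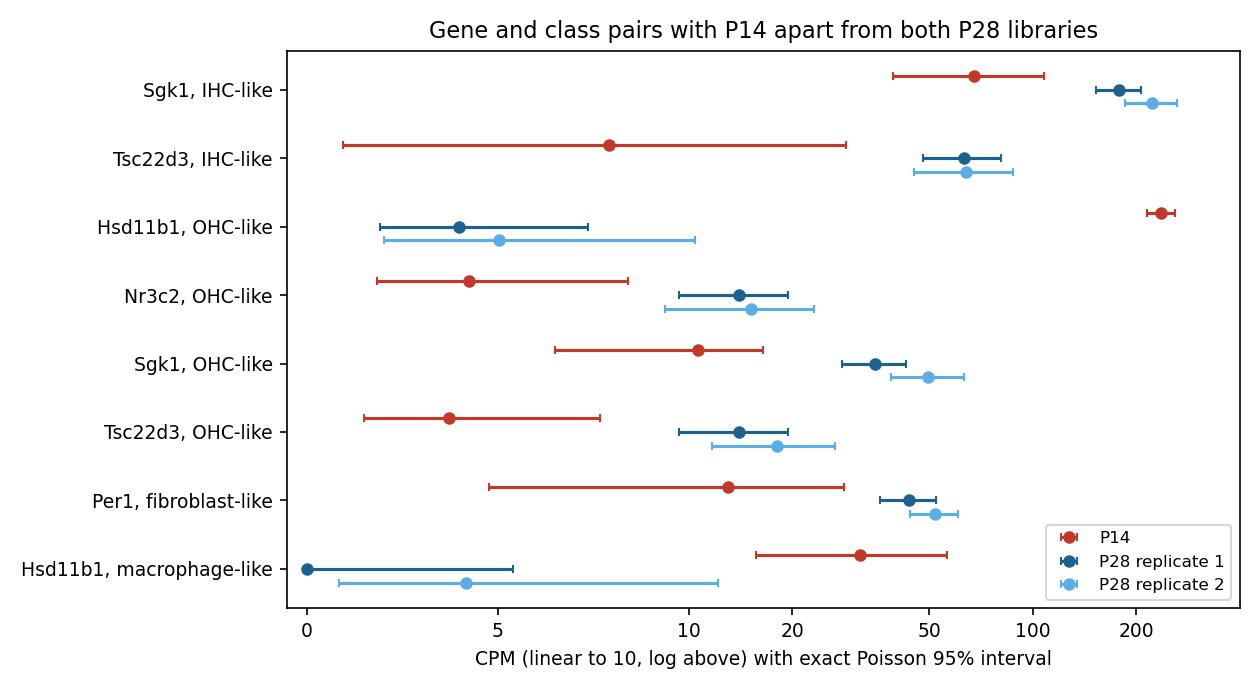
The 8 pairs of gene and class whose P14 level was apart from both P28 libraries. The x axis is CPM, linear to 10 and logarithmic above, and bars are exact Poisson 95% intervals. *Hsd11b1* in OHC-like and in macrophage-like cells lies to the right of its P28 points, and the other 6 pairs lie to the left.

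The wider pathway was read from 85 genes in 8 lists, none of them among the 8 genes above, by comparing classes within libraries. The lists were chosen with earlier results of these data known. Their counts and p-values therefore describe the lists and are no independent check. UMIs were summed per library over mesenchymal cells (TBC-like, fibroblast-like, pericyte-like), over epithelial cells (DC/PC-like, IPhC/IB-like, ISC/HeC/OSC-like, RM-like, SpC/RC-like), over OHC-like and over macrophage-like cells. The 3 sums of one kind were set against the 3 of another with edgeR's quasi-likelihood test with the library as a block and Benjamini-Hochberg adjustment over all genes. Epithelial sums at P14 held no IPhC/IB-like or SpC/RC-like cells. Both unnamed P28 clusters that best matched fibrocytes, of 601 and 404 cells, are in none of the sums. The comparisons share sums, so they are given side by side. Log2 fold changes are followed by ± a standard error, derived from the F statistic of the test.

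Pooled mesenchymal cells were higher than pooled epithelial cells in most tested genes of the list of glucocorticoid-induced targets. The epithelial classes were not alike. Summed over the list, RM-like cells had 3240, 2778 and 3090 CPM at P14 and in the P28 replicates, and ISC/HeC/OSC-like cells 1041, 1205 and 1339 CPM. TBC-like cells had 1975, 3284 and 3280 CPM, so RM-like cells were at a mesenchymal level. A link to the level of *Nr3c1* was not tested. Of 23 induced targets tested 14 were higher and 2 lower, with a median log2 fold change of 1.18 against −0.03 for all genes, where 23.3% of 13352 genes were higher, 27.1% lower and 50.4% changed either way. *Cebpd*, a transcription factor of the acute phase, was at 68.6, 88.3 and 66.8 CPM in mesenchymal sums at P14 and in the P28 replicates and at 3.01, 7.53 and 9.23 CPM in epithelial sums, a log2 fold change of 3.33 ± 0.23 (edgeR adjusted p = 0.000158). *Cdkn1c*, a cell cycle inhibitor, was at 158, 177 and 166 CPM against 2.71, 17.4 and 20.3 CPM (log2 3.61 ± 0.41), and *Angptl4*, a lipase inhibitor, differed by log2 4.09 ± 0.59. The 2 lower targets were *Fam107a*, an actin-associated protein, at 13.9, 18.4 and 25.3 CPM against 390.3, 575 and 538 CPM (log2 −4.83 ± 0.25, edgeR adjusted p = 0.000113), and *Pdk4*, an inhibitor of pyruvate oxidation (log2 −2.71 ± 0.18).

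Sodium transport went the other way, with 6 of 8 genes lower in mesenchymal cells and 1 higher, at a median log2 fold change of −2.48. *Scnn1b*, a subunit of the epithelial sodium channel that *Sgk1* acts on, was at 2.32, 2.73 and 4.10 CPM against 29.8, 70.8 and 60.1 CPM (log2 −4.27 ± 0.23, edgeR adjusted p = 0.000113). *Scnn1a*, another subunit, differed by log2 −3.57 ± 0.26, and the third subunit, *Scnn1g*, had 3 UMIs against 125, 40.2 times fewer relative to all UMIs (interval 13.4 to 197). The higher gene was *Wnk4*, a kinase of salt transport (log2 1.39 ± 0.14). Summed over the list, DC/PC-like cells had 1020, 477 and 629 CPM at P14 and in the P28 replicates. TBC-like cells had 502, 490 and 584 CPM, so these classes were close at P28.

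The other lists were mixed. Of 8 chaperones 1 was higher (*Ppid*, log2 0.42 ± 0.14) and 2 lower, *Fkbp4*, a co-chaperone that favours receptor transport (log2 −1.71 ± 0.32), and *Hspa8* (log2 −0.67 ± 0.19). Of 8 coregulators 3 were higher, *Ncoa3* and *Crebbp* among them, and 2 lower (*Smarca4*, *Ncoa1*), and of 11 clock genes 1 was higher (*Cry1*) and 2 lower (*Ciart*, *Dbp*). Of 3 genes of the corticotropin-releasing hormone (CRH) axis 2 were lower, and neither of 2 steroid-handling genes passed the test. Of 9 dissociation genes 4 were higher in mesenchymal sums, with *Fos* at 17.4, 165 and 85.5 CPM against 9.65, 43.1 and 26.2 CPM (log2 1.58 ± 0.24), *Egr1* at log2 1.46 ± 0.18 and *Fosb* at log2 1.33 ± 0.18, and 1 was lower. Several induced targets, *Zfp36* and *Dusp1* among them, are also known as early-response genes, and how far dissociation moves the list was not tested.

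OHC-like cells were lower than pooled epithelial cells in most induced targets and in sodium transport. For sodium transport this did not hold against every epithelial class. Summed over that list, OHC-like cells had 901, 822 and 891 CPM at P14 and in the P28 replicates. DC/PC-like cells had 1020, 477 and 629 CPM, so OHC-like cells were above them at P28. Of 20 induced targets tested 2 were higher and 13 lower (median log2 fold change −1.43, all genes −0.03), where 28.2% of 11875 genes were higher, 31.0% lower and 59.1% changed either way. *Klf9*, a transcription factor induced by glucocorticoids, was higher at 299.5, 204 and 234 CPM against 111, 113 and 151 CPM (log2 0.87 ± 0.17, edgeR adjusted p = 0.00776), as was *Nfkbia*, the inhibitor of NF-κB (log2 1.26 ± 0.17). *Fam107a* was lower at 9.59, 60.8 and 46.2 CPM against 390.3, 575 and 538 CPM (log2 −4.00 ± 0.44), as were *Pdk4* (log2 −3.94 ± 0.63) and *Anxa1*, an anti-inflammatory phospholipid-binding protein (log2 −3.03 ± 0.54). All but *Wnk1* of the 8 sodium transport genes were lower, with *Scnn1b* at log2 −4.78 ± 0.24, *Scnn1a* at log2 −4.76 ± 0.60 and *Scnn1g* at log2 −3.45 ± 0.62. Dissociation genes were lower too, 6 of 7, with *Ier2* at log2 −3.18 ± 0.31, *Hspa1a* at log2 −2.73 ± 0.33 and *Fos* at log2 −2.70 ± 0.25, and 1, *Dnajb1*, was higher (log2 1.10 ± 0.15).

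The receptor's folding machinery was present in hair cells. *Hsp90aa1*, the chaperone that holds the receptor ready for hormone, was at 2127, 1205 and 1219 CPM against 198, 186 and 191 CPM (log2 2.83 ± 0.18, edgeR adjusted p = 0.000206), and the co-chaperone *Stip1* was also higher (log2 1.39 ± 0.15). *Fkbp4* was lower (log2 −0.77 ± 0.13), and the other 5 chaperones did not pass the test. Of 8 coregulators 5 were higher and none lower, led by *Ncoa2* (log2 0.76 ± 0.17), *Ncoa3* (log2 0.70 ± 0.17) and *Ncoa1* (log2 0.56 ± 0.12). Of 11 clock genes 1 was higher, *Arntl* (log2 0.90 ± 0.23), and 4 were lower, among them *Per2* (log2 −3.74 ± 0.54), *Dbp* (log2 −2.62 ± 0.35) and *Per3* (log2 −1.58 ± 0.16).

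Of 9 steroid-handling genes 2 had enough UMIs to be tested, 1 higher and 1 lower in OHC-like cells. *Srd5a1*, a 5α-reductase that reduces corticosterone and other steroids, was at 527, 482 and 475 CPM in outer hair cells but 10.9, 6.60 and 4.19 CPM in epithelial sums (log2 6.08 ± 0.31, edgeR adjusted p = 0.000105), at both ages. In IHC-like cells it was at 567 (P14), 329 and 362 CPM (P28). *H6pd*, which makes the NADPH that *Hsd11b1* uses, was lower in OHC-like cells, at 0.533, 1.999 and 2.16 CPM against 3.92, 9.11 and 9.90 CPM (log2 −2.36 ± 0.39, edgeR adjusted p = 0.00406), and rested on 9 UMIs. In the CRH axis *Crhbp*, which binds and holds CRH, was at 5055 CPM in P14 RM-like cells, then 1427 and 1239 CPM by P28, and was lower than in epithelial sums both in OHC-like (log2 −6.09 ± 0.41) and in mesenchymal sums (log2 −4.95 ± 0.26). The CRH receptor *Crhr1* had 30.2, 113 and 97.7 CPM in DC/PC-like cells and was lower in the OHC-like (log2 −3.24 ± 0.43) and mesenchymal sums (log2 −4.83 ± 0.27). *Pomc*, the precursor of corticotropin, was higher in OHC-like cells (log2 1.32 ± 0.29). Over all lists 13 genes were higher in OHC-like cells, against 21 without the P14 library, 5 without P28 replicate 1 and 6 without P28 replicate 2. Calls over all genes moved the same way, with 3345 of 11875 higher, then 4320 of 12832, 1985 of 11758 and 2095 of 11905.

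Macrophage-like cells were set against mesenchymal cells, both being high in *Nr3c1*. Of 9 clock genes 7 were lower in macrophage-like cells and none higher (median log2 fold change −1.34, all genes −0.09), where 16.6% of 9002 genes were higher, 17.1% lower and 33.6% changed either way. *Cry2*, a repressor of the clock, was at 2.86, 20.5 and 25.05 CPM against 32.5, 80.3 and 74.2 CPM (log2 −1.82 ± 0.29, edgeR adjusted p = 0.00326), with *Per3* at log2 −1.73 ± 0.28 and *Nr1d1* at log2 −1.51 ± 0.26. Of 18 induced targets 3 were higher, *Mt1*, a metallothionein (log2 1.86 ± 0.24), *Zfp36*, which destabilises cytokine mRNA (log2 1.35 ± 0.25), and *Fam107a* (log2 0.98 ± 0.31). The 4 lower targets included *Klf9* (log2 −2.47 ± 0.61), *Cdkn1c* (log2 −1.98 ± 0.47) and *Klf15* (log2 −1.60 ± 0.35). *Hspa8* was higher (log2 0.75 ± 0.23), and *Crebbp* (log2 −0.79 ± 0.23) and *Wnk4* (log2 −1.77 ± 0.36) were lower. Of 8 dissociation genes 3 were higher and none lower, *Jun* at log2 2.04 ± 0.23, *Fos* at log2 0.98 ± 0.31 and *Ier2* at log2 0.90 ± 0.22. Over all lists 7 genes were higher and 13 lower, and without P28 replicate 1, 4 of these 20 genes still passed the test, while without the library as a block 2 were higher and 10 lower. Over all genes 1493 were higher and 1535 lower of 9002. Without P28 replicate 1 these were 797 and 339 of 9137, and without the block 1407 and 1359 of 9002.

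**Figure D5:**
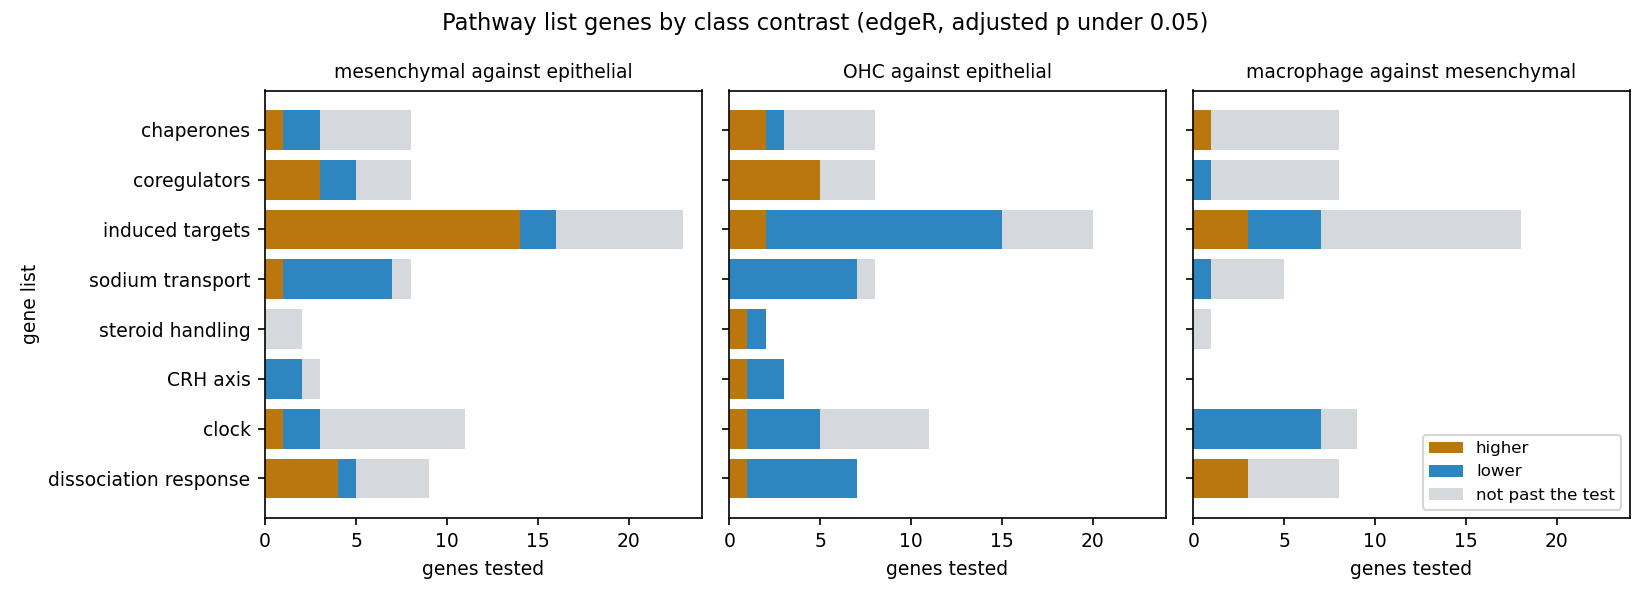
Number of genes tested in each of 8 lists (bars) that were higher (orange), lower (blue) or not past the test (grey) in the first kind of cell of each comparison. Of induced targets 14 of 23 are higher in mesenchymal cells, and 13 of 20 are lower in OHC-like cells.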

How the data were processed

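The deposited files hold UMI counts per gene and cell barcode, not normalized, which the authors made with Cell Ranger (6.0.1 in the submitters' processing notes, 5.0.1 in the file headers) on mm10. Depth is given with the cells at the start of the report. The 8 genes, the 8 gene lists and the cluster names' rule were chosen with earlier results of these data known.

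Barcodes with 200 to 6000 genes and at most 15% mitochondrial UMIs were kept. Cells were clustered with Seurat 5.3.0 (2000 variable genes without the 8 genes or list genes, 30 components, resolution 1), with P14 on its own and both P28 libraries joined by anchors. A cluster was named from at least 3 markers. Each had to be in at least 5% of its cells and at least 2-fold above the median cluster of that age, with 10 CPM added to each level. Among types that qualified, the one with most markers among the 10 leading genes was taken. A cluster stayed unnamed where another type led it, or where it shared at least 5 leading genes with a larger cluster of another name. The rule was set after the clusters were seen. UMIs were summed per class and library, and levels were shown for classes of 30 or more cells. Besides the 8 genes, the text names for each comparison, list and direction up to 3 genes of largest fold change that had at least 30 UMIs, passed the threshold of 0.05 and moved one way in all libraries, and for each of the 8 with at least 300 UMIs the 3 genes of most similar profile. *Wnk1*, *Dusp1* and *Cyp11a1* are named outside this rule, after their values were seen.

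Sums were compared with edgeR 4.0.16 (quasi-likelihood), the library as a block, since both sums of a library come from the same pool of mice. The fit was tested on simulated data in which 200 genes changed 4-fold: 98.0%, 95.0% and 89.5% were recovered for the mesenchymal, OHC-like and macrophage-like comparisons (13352, 11875 and 9002 genes). There were 9, 7 and 2 false calls. Simulated libraries differed in depth alone, and far fewer genes changed than were called in the data. The simulation therefore does not check the block, or the normalization where many genes change. DESeq2 1.42.0, other filters and normalization, left-out libraries, other clusterings and thinned cells were alternatives. The doublet caller in scanpy 1.11.5 called 3, 0 and 1 cells, under 0.5%, and so did not work, and leaving out the 8% of highest score was added after the data were seen. Promoters came from RefSeq and positions from the GRCm38 annotation. Libraries were pools of mice and the library was a block, so p-values measure how the difference between 2 kinds of cell varied over these 3 pools. The pools span both ages and are not replicates of 1 condition.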

Additional observations from a re-analysis of the deposited data

Results flagged for a closer look

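The 18279 barcodes left out by the filter on genes and mitochondrial UMIs held 27812612 UMIs, and signal of all 8 genes was found in them, data that the comparisons do not use. Over the 3 libraries together *Nr3c1* was at 66.8 CPM, *Nr3c2* at 19.3 CPM, *Hsd11b1* at 6.22 CPM, *Hsd11b2* at 0.144 CPM, *Fkbp5* at 11.04 CPM, *Tsc22d3* at 69.9 CPM, *Sgk1* at 87.6 CPM and *Per1* at 29.0 CPM. Whether these UMIs come from damaged cells or free RNA was not tested.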

How the results depend on the processing

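The alternatives were run on 13 levels and 6 log2 ratios of the 8 genes, the pairs called between ages and the list comparisons, and not on the other levels, the orders of classes or the correlations. None of the values recomputed changed direction. Of those behind the main comparisons 103 moved by less than the spread between replicates or, for counts, less than 1.5 times, and 27 moved by more. Some of the 103 could hardly have moved more. The mean of the 2 P28 replicates lies within their SD of either one, so leaving out a P28 replicate does not check a ratio. The doublet caller removed 3, 0 and 1 cells, so that setting checks little. In log2 ratios, *Hsd11b1* in OHC-like cells (P14 over P28, 5.42) became 6.47 at a limit of 10% mitochondrial UMIs and 6.65 in thinned cells, and *Sgk1* there (−1.89) became −2.41 and −2.35. For *Nr3c1* in fibroblast-like over ISC/HeC/OSC-like cells 2.55 became 2.75 at 10% mitochondrial UMIs, 2.72 without the top 8% of doublet scores and 2.26 in thinned cells. For *Sgk1* in RM-like over TBC-like cells 4.63 became 4.96 at 10% mitochondrial UMIs and 4.26 in thinned cells. For *Tsc22d3* in SGN-like over OHC-like cells 4.78 became 4.48 at resolution 2, 4.55 with 200 to 3000 genes, 4.42 at 10% mitochondrial UMIs, 5.37 without the top 8% of doublet scores and 5.30 in thinned cells. The 11 pairs called between ages became 1 in thinned cells and 7 without the top 8% of doublet scores. The cause was not tested, except that thinning leaves fewer UMIs.

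Counts of list genes moved with the filter: with at least 10 UMIs in every sum, 17 lower genes in mesenchymal cells became 9 and 34 in OHC-like cells became 18, fewer genes being tested. Leaving out each library gave 5 to 21 higher genes in OHC-like cells (13 with all, 21 without P14 replicate 1, 5 without P28 replicate 1, 6 without P28 replicate 2). In macrophage-like cells it gave 2 to 14 higher (7 with all, 14 without P14 replicate 1, 2 without P28 replicate 1) and 2 to 18 lower (13 with all, 2 without P28 replicate 1). Calls over all genes moved in these settings too. In macrophage-like cells 1493 of 9002 genes were higher with all libraries, 2181 of 12730 without P14 replicate 1 and 797 of 9137 without P28 replicate 1. For macrophage-like cells, 12 list genes were higher with no filter beyond 1 UMI (2034 of all 19094 genes) and 8 lower without the top 8% of doublet scores (976 of all 8495). Without the block by library, the pairing of sums from one pool, 17 genes were higher and 15 lower in mesenchymal, 10 and 25 in OHC-like and 2 and 10 in macrophage-like cells. Over all genes these were 2504 and 2939 of 13352, 2754 and 3081 of 11875, and 1407 and 1359 of 9002. No paired analysis was possible because P14 and P28 share replicate number 1 alone, which does not mark a shared pool, so the age comparison rests on 1 library against 2. Depth limits *Hsd11b2*, *Nr3c2* and *Fkbp5*, whose levels in most P14 classes rest on few UMIs.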

Other observations

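One steroid-making gene outside the rule for named genes was looked at after its values were seen. *Cyp11a1*, which makes the first step from cholesterol, had 11, 3 and 2 UMIs in OHC-like cells at P14 and in the P28 replicates and 0 in the epithelial sums, at least 15.6-fold higher against a floor of 3 counts over all epithelial sums. It had too few UMIs to enter the edgeR test.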
